A study of Mus musculus with 2 samples.

Results

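Among the E2F1 binding sites listed for mouse hepatocytes, 1446 of 5667 peaks (25.5%) lay inside a gene and more than 20 kb from its transcription start site (TSS). They are called deep intragenic peaks here. A peak was counted if the authors' table placed it inside a gene (location "Included"), gave it no promoter entry for any gene, and put the TSS of the host gene more than 20000 bp away. The cells were primary hepatocytes of C57Bl6J mice harvested 36 h after infection with the adenovirus Ad-E2F1, and the ChIP and the input chromatin both came from such cells. Chromatin was immunoprecipitated with the E2F1 c20 antibody, and the input had no antibody step. E2F1 was therefore overexpressed in every sample, cells without the vector were not analysed here, and the labels do not name the promoter that drives the transgene. The series text speaks of 2 replicates of 2 combined ChIPs each, while GEO holds 1 record of each kind. There is a single peak list with no column per replicate, so no value below has a replicate error and no test between samples was possible. A peak list holds no expression values, so the labelled cell type could not be checked against its markers.

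E2F1 is a transcription factor that binds DNA as a heterodimer with a DP protein and is known for switching on genes of the G1/S transition and DNA replication. Its classical sites lie in promoters near the TSS, where it recruits coactivators or, when bound by the retinoblastoma protein, repressors. Sites inside genes can fall in enhancers or at internal start sites within introns. In hepatocytes E2F1 has also been linked to lipid and glucose metabolism.

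The sequences that could be shown are promoters, since no mm9 genome was used here to read the deep peaks themselves. The E2F consensus was searched as the 8 letters TTTCCCGC, TTTCGCGC, TTTGCCGC and TTTGGCGC on both strands, in RefSeq promoters of build GRCm38.p6 that run from 250 bp before to 50 bp after a start. Of the 1078 host genes of deep peaks, 849 had a promoter in that table, and 29 of these (3.42%) held such a match, against 2.60% of all 27025 genes of the table. A gene counted if any of its starts held a match. Several starts were listed for 30.5% of the 849 and 15.4% of all genes, so the shares are not like for like. Genes with a peak in the authors' promoter class held a match in 9.42% of 2378 cases. Among the 137 host genes that also had a promoter peak there were 7 (5.11%). A match is a string of letters and does not show a bound site. The 250 bp upstream of the start are printed for 4 of these 7 genes, chosen after their values were seen, because each carries a peak at its promoter as well as deep peaks. Tex14 has the strongest group of deep peaks in the list, Ltn1 and Tubgcp3 have strong promoter peaks, and Larp4b has a pair of deep peaks. The authors' promoter class reaches up to 1980 bp from the TSS. The window of the Tex14 promoter peak lies 563 bp upstream of the authors' TSS, beyond the 250 bp printed. Whether a match lies under a promoter peak was not tested in any of these genes. Capitals mark the E2F letters. They lie on the plus strand of the gene in Tex14, Ltn1 and Tubgcp3 and as the reverse complement of TTTGGCGC in Larp4b, starting 113, 126, 20 and 70 bp before the start. The intervals are, in GRCm38.p6, chr11:87404815-87405064 (plus strand) for Tex14, chr16:87432607-87432856 (minus strand) for Ltn1, chr8:12672101-12672350 (minus strand) for Tubgcp3 and chr13:9093631-9093880 (plus strand) for Larp4b.
Tex14: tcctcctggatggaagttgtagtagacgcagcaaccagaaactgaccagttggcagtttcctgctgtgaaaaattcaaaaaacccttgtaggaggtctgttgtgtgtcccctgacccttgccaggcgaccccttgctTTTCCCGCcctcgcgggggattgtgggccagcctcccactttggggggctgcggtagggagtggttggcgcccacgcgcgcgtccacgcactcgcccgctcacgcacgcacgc
Ltn1: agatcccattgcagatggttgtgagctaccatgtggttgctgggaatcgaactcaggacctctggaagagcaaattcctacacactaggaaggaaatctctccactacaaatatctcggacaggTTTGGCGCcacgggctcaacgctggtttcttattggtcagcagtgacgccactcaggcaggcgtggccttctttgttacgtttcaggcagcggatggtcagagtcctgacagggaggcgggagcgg
Tubgcp3: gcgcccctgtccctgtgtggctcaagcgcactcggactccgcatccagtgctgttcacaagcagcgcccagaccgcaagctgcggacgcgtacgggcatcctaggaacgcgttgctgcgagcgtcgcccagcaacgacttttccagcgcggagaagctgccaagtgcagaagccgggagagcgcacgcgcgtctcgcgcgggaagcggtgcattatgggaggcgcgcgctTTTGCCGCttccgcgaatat
Larp4b: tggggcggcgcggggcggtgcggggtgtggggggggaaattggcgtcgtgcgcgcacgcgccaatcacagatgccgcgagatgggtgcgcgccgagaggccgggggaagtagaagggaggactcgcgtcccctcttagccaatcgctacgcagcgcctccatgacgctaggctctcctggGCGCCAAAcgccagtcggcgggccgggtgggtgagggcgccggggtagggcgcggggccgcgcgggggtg

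Deep intragenic peaks were weak for this list. Fold is the authors' fold enrichment for each peak, the ChIP signal over the background that the peak caller expected from the input. Whether it refers to the summit or to the whole called region is not stated. Its median was 3.81 in deep peaks (quartiles 3.31 and 4.63, range 2.28 to 20.94) and 4.93 over the whole list. The median deep peak held 130 tags (quartiles 90 and 184) in a called region of 1982 bp, with a pileup height of 35, against 149 tags, 1914 bp and 45 over all peaks. The median false discovery rate of the caller was 4.33% in deep peaks and 1.84% over the list. Intragenic peaks at 5 to 20 kb from the TSS were close to the deep peaks, with a median rate of 4.005% and a height of 38. A fold of at least 5 was reached by 270 deep peaks (18.7%), against 48.8% of the list, and a fold of at least 10 by 29 (2.01%, exact binomial 95% interval 1.35% to 2.87%), against 12.8% of the list. The caller gave a false discovery rate of 0 to 8 deep peaks (0.553%), against 4.52% of the list. Intervals on shares and medians cover counting over peaks only, and peaks of one list are not replicates.

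Among the listed peaks inside genes that had no promoter entry, the fold was highest within 5 kb of the TSS. The 378 intragenic peaks within 5 kb of the TSS had a median fold of 4.71 (binomial 95% interval of the median 4.45 to 4.97), and the 464 peaks at 5 to 20 kb had 3.91 (3.79 to 4.11). The interval of the deep peaks, 3.74 to 3.87, overlapped that of the peaks at 5 to 20 kb and lay below that of the peaks within 5 kb. Folds of at least 10 made up 8.99% of the peaks within 5 kb and 4.53% of those at 5 to 20 kb. No test of these differences was run, because there is 1 list and no replicate. Which classes overlapped depended on the limit set on the peaks. Such limits keep stronger peaks of every class by construction, so the medians below describe what each limit leaves. With a false discovery rate of at most 5% the medians were 5.55 (5.07 to 6.03) within 5 kb, 4.39 (4.21 to 4.55) at 5 to 20 kb and 4.10 (4.02 to 4.19) in deep peaks. With at most 1% they were 7.5 (6.59 to 8.32), 7.42 (6.04 to 8.31) and 5.31 (4.83 to 5.72). Under both of these limits the interval of the deep peaks lay below that of the peaks at 5 to 20 kb, and at 1% the nearer classes overlapped each other. With a score of at least 100 the medians were 6.69 (6.18 to 7.55), 5.51 (4.82 to 6.93) and 4.76 (4.47 to 5.03). There the interval at 5 to 20 kb overlapped both that of the deep peaks and that within 5 kb.

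**Figure D1:**
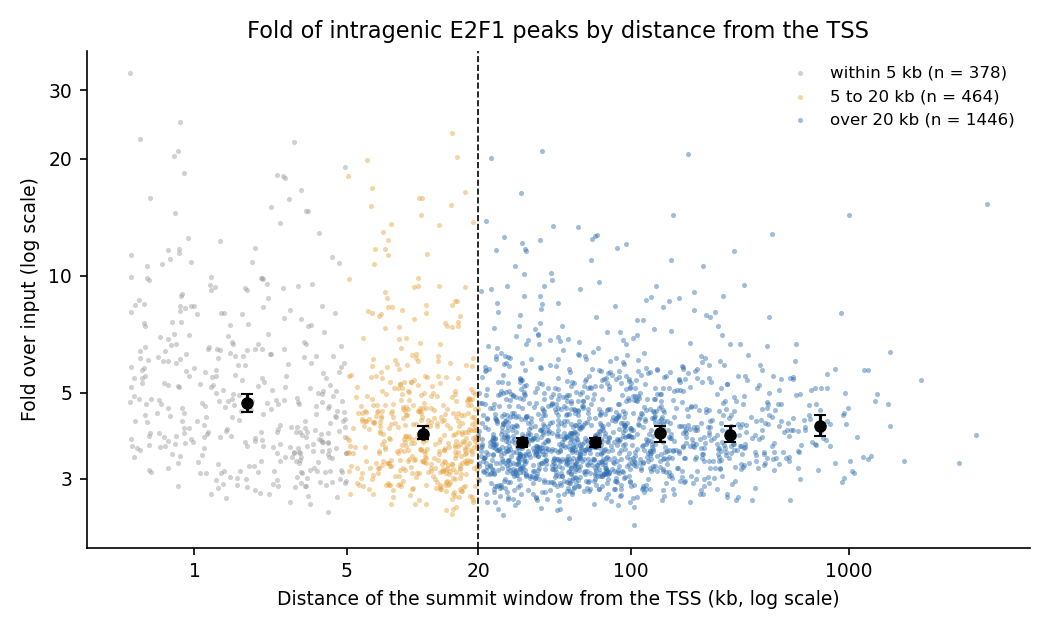
Fold over input (vertical axis, log scale) of each intragenic peak outside promoters against its distance from the TSS in kb (horizontal axis, log scale), with the 20 kb threshold as a dashed line. Black points are medians of 7 distance bins with binomial 95% intervals; they fall from 4.71 within 5 kb to 3.74 at 20 to 50 kb and stand at 4.10 beyond 500 kb.

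Within the deep peaks the distance ran from 20001 to 4289638 bp, with a median of 68819 bp (quartiles 37963 and 144494). More than 100 kb separated 516 peaks (35.7%) from the TSS, and more than 500 kb separated 78 (5.39%). The tag count fell along this range while the fold did not. At 20 to 50 kb the median was 139 tags and a fold of 3.74 (515 peaks), at 100 to 200 kb 126 tags and 3.94 (252 peaks), and beyond 500 kb 91 tags and 4.10 (78 peaks). The median called region shrank over the same bins from 2083 to 1972 and 1678 bp. Values near the threshold are given only as a description. Just inside it, the peaks of Nab1 at 20001 bp and Farp1 at 20098 bp had folds of 3.89 and 2.98. Just outside it, those of Zfp292 at 19982 bp and 1110059E24Rik at 19980 bp had 4.21 and 3.0.

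A strong minority of 29 deep peaks in 25 genes had a fold of at least 10. They held 69 to 580 tags (median 297), against a median of 128 in the other 1417, and their pileup height had a median of 156 against 35. The strongest lay in Rnaseh2b, a subunit of the RNase H2 enzyme that removes ribonucleotides from DNA, 39213 bp from the TSS on chromosome 14 from 62950639 to 62950939 (mm9). It had a fold of 20.94 and 384 tags. Next came Dock9, an exchange factor for the GTPase Cdc42, with a fold of 20.60 and 377 tags at 182665 bp, on chromosome 14 from 122013991 to 122014291. Aars, the alanyl-tRNA synthetase gene, followed with 20.05 and 181 tags at 22917 bp, on chromosome 8 from 113579961 to 113580261. The same peak is also listed 13136 bp downstream of Clec18a. The bromodomain protein gene Brd3 had a fold of 16.31 with 262 tags at 31350 bp.

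Behind these 4 peaks the folds ran from 15.28 down to 10.08. The cAMP phosphodiesterase genes Pde4d and Pde4b each held one such peak far inside the gene, at 997643 bp with a fold of 14.34 and at 445668 bp with 12.82. In signalling, Sos2, an exchange factor that activates Ras, had 12.72 at 70389 bp, and the ligand gene Wnt5b had 12.04 at 95050 bp. Lipa, the lysosomal acid lipase, had 12.60 with 479 tags at 26372 bp. Acsl1, which activates long-chain fatty acids in liver, had 11.55 with 130 tags at 33205 bp. Fancc, of the Fanconi anaemia core complex, had 10.97 at 65459 bp. The remaining named peaks above 11.7 were Kctd16 (14.32), Epb4.1l4b (12.69), Fam73a (12.16), Spnb4 (11.82) and the iron-sensing F-box gene Fbxl5 (11.73), besides Tex14 and the gene model AC114005.5 described further on. At the weak end, the 5 lowest folds were 2.51 in Slc35f5, 2.49 in Slc16a10, 2.42 in Ppp3r1, 2.38 in Fut8 and 2.28 in Cfhr2.

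Tags and fold ranked the deep peaks differently. Tags are counted over the whole called region, while the stretch that the fold refers to is not stated. In the 374 peaks with the fewest tags (30 to 90) the median fold was 4.49 in regions of 1127 bp, and in the 360 with the most (185 to 825) it was 3.49 in regions of 3220 bp. Spearman's rank correlation over the 1446 peaks was -0.313 between tags and fold and 0.911 between region length and tags. These peaks share a library and a list in which every score is at least 50, so the values describe the list only. Those 360 peaks nevertheless held 22 of the 29 folds of at least 10. The most tags of any deep peak, 825, lay in Cfhr2, a complement factor H-related gene of liver, and the same peak had the lowest fold of all, 2.28. Cfhr2 belongs to a family of close copies, and the handling of reads with several matches is not stated in the labels or the file. Any part of such reads in these values was not tested. Sorbs2, an adaptor protein of the actin cytoskeleton, followed with 650 tags at a fold of 4.02, then Tex14 with 580 tags at 13.44, Ccdc21 with 550 at 4.69 and Tex14 again with 544 at 13.33.

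**Figure D2:**
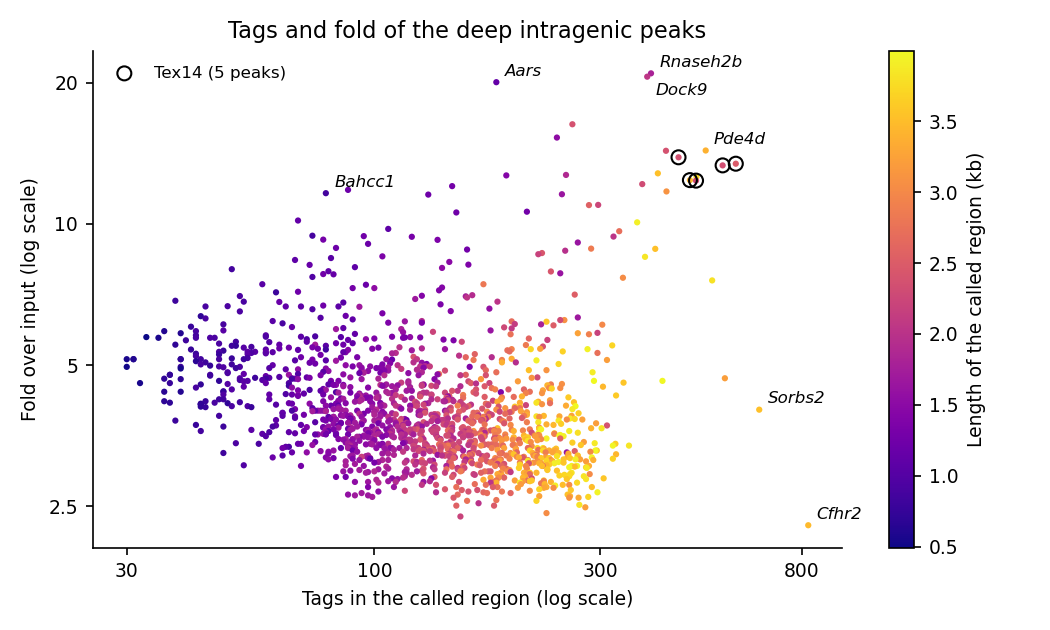
Tags in the called region (horizontal axis, log scale) and fold over input (vertical axis, log scale) of each of the 1446 deep peaks, coloured by region length in kb; circles mark the 5 deep peaks of Tex14. Most points follow a band in which peaks with more tags have longer regions and lower folds, Cfhr2 lies at its end with 825 tags and a fold of 2.28, and Tex14, Pde4d, Dock9 and Rnaseh2b lie above it.

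The rule admits only genes longer than 20 kb as hosts. The 1446 peaks lay in 1078 genes, of which 827 held 1 peak and 251 (23.3%) held at least 2, and those 251 genes contained 619 of the peaks (42.8%). Of all 21900 protein-coding genes in the RefSeq table, 4.89% had a deep peak and 1.14% had at least 2. At least 3 deep peaks were found in 71 genes, exactly 5 in 10 genes, 7 in 2 genes and 10 in 1 gene. The median fold was 3.67 for peaks in genes with several and 3.92 for peaks alone in their gene. Consecutive deep peaks of a gene were a median of 40577 bp apart (quartiles 13630 and 105266, range 1058 to 1505217, 368 gaps), and 33 gaps were under 5000 bp. A longer gene has more room for listed peaks. Gene lengths of mm9 were not used here, so counts per length cannot be given, and the farthest peak gives only a lower limit of a gene's length.

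The gene with the most was Dpyd, which codes for dihydropyrimidine dehydrogenase, the first enzyme of pyrimidine breakdown in liver. Its 10 deep peaks spread over 787951 bp of chromosome 3, from 31689 to 819640 bp past the TSS. Their folds, in order from the TSS, were 3.23, 3.95, 3.47, 4.68, 5.42, 4.93, 4.28, 3.17, 4.51 and 4.16. All 10 therefore stayed in a narrow range, 9 of them below a fold of 5, and the gaps between them ran from 9329 to 305912 bp. Pde4d held 7 peaks between 605401 and 1222063 bp from the TSS, with folds of 3.66, 4.24, 4.44, 14.34, 3.33, 3.85 and 3.38. One peak there, at 997643 bp, had over 3 times the fold of each of its 6 neighbours, the nearest of which lay 11673 bp away. Lpp, a LIM-domain protein of focal adhesions, also held 7, with folds of 2.69 to 3.98 between 178161 and 583211 bp.

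Another 10 genes held 5 deep peaks each. In 9 of them the folds lay between 2.75 and 6.03. They were the receptor phosphatase Ptprk (2.82 to 4.15), the exchange factor Psd3 (2.81 to 4.48), the polarity protein Pard3 (3.22 to 4.30), the GTPase-activating protein Arhgap42 (2.75 to 3.97) and the glycosyltransferase Large (3.21 to 4.63). The others were the exocyst subunit Exoc4 (3.17 to 5.0), the lipid transfer protein Vps13b (3.33 to 5.46), the receptor kinase Erbb4 (3.15 to 5.0) and the sarcoglycan Sgcz (3.30 to 6.03). The span from the first to the last deep peak ranged from 151201 bp in Large to 957544 bp in Erbb4. Of the genes with 4, Dst, a plakin that links cytoskeletal filaments, reached folds of 7.92 and 8.09 at 221290 and 242506 bp. Its other peaks had 3.33 and 3.79. Abcc2, the pump that exports conjugated bilirubin into bile, was the most compact of these genes, with 4 peaks within 8789 bp and folds of 2.90, 3.60, 3.15 and 3.47. Utrn, the gene of utrophin, had 4 peaks of nearly equal fold (3.39 to 3.52). Slc4a4, a bicarbonate cotransporter, Zfand3, Fam172a and the growth factor gene Nrg1 also had 4 peaks each, with folds of 2.61 to 4.9. Those 7 were the genes with the highest summed tags among the 11 with 4 peaks.

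**Figure D3:**
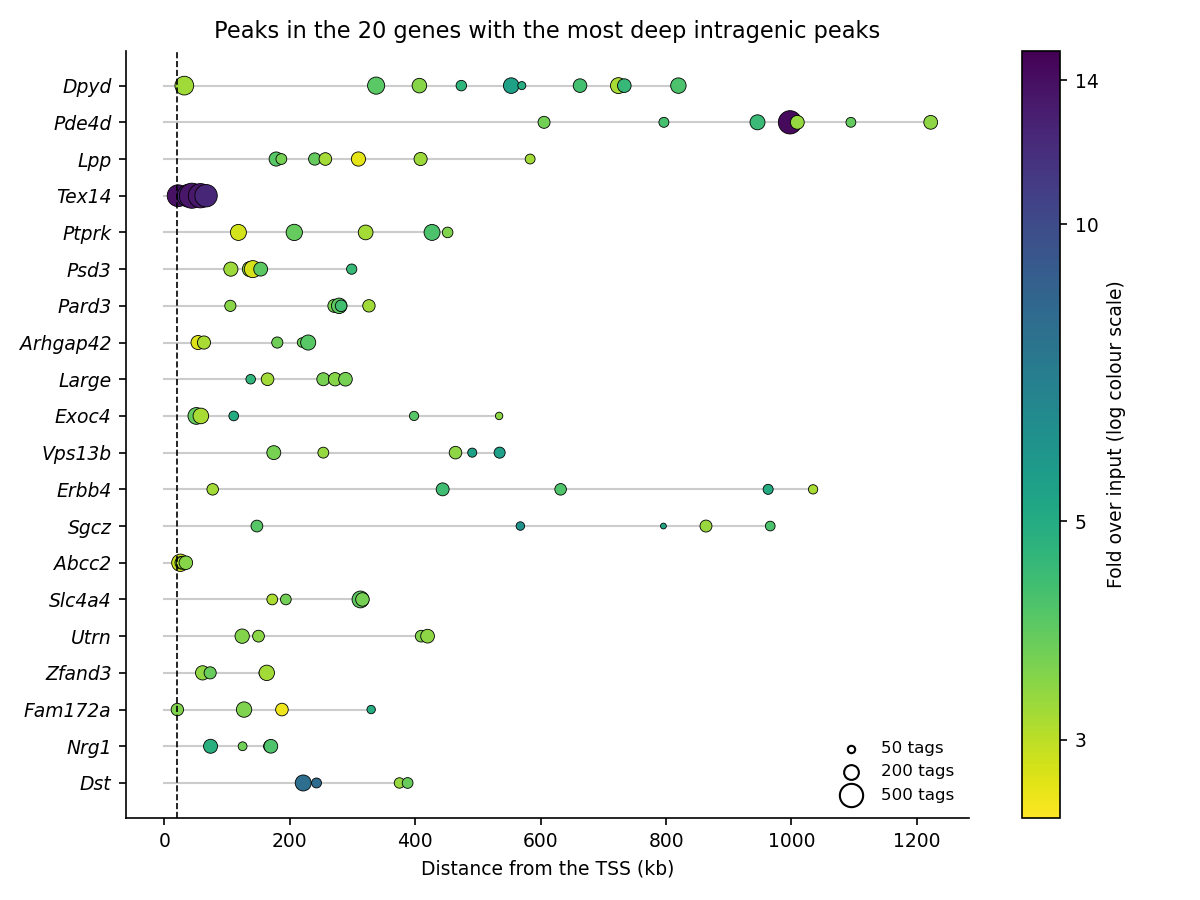
Deep peaks along the 20 genes with the most of them, placed by distance from the TSS in kb (horizontal axis), with point area for tags and colour for fold on a log colour scale; grey lines run from the TSS to the farthest deep peak, and the dashed line is at 20 kb. Tex14 carries 5 peaks of high fold within 66352 bp of its TSS, Pde4d has 1 such peak at 997643 bp, and the peaks of Dpyd spread along most of its line with folds of 3.17 to 5.42.

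Tex14 stood apart from the other genes with several peaks. It is known as a testis-expressed gene needed for the bridges between germ cells. Its 5 deep peaks lay 21763, 38342, 43779, 57440 and 66352 bp from the TSS on chromosome 11, between 87240330 and 87285219. Their folds were 13.87, 12.37, 13.44, 13.33 and 12.40, and they held 439, 478, 580, 544 and 464 tags. Of the other 70 genes with at least 3 deep peaks, only Pde4d and AC114005.5 held a single peak above the lowest of these folds. Among those 71 genes the median fold per gene was 13.33 in Tex14, and 42 of them had no deep peak with a fold of at least 5. A sixth peak of Tex14, 17371 bp from the TSS and so outside the threshold, had a fold of 16.46 and 1049 tags, the highest tag count of the whole list. A seventh, at the promoter shared with Rad51c, had a fold of 7.64 and 125 tags. Without Tex14 the share of deep peaks with a fold of at least 10 was 1.67%.

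Stricter limits leave fewer peaks and so fewer genes with several. Among the 197 deep peaks with a false discovery rate of at most 1%, 7 genes held at least 2. Besides Tex14 they were Dpyd, Gsk3b, Hnf4a, Nrg1, Pcdhga11 and Tjp1, each with 2. Hnf4a, the transcription factor central to hepatocyte identity, had one of these at 32374 bp with a fold of 10.08 and 359 tags. Among the 270 deep peaks with a fold of at least 5, 12 genes held at least 2, with 5 in Tex14 and exactly 2 in 10 of the others, which included Dst, Tnrc6b, Myo10, Myh9 and Vps13b.

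Some deep peaks have an uncertain host. The 3 largest distances all came from AC114005.5, a gene model of the authors' annotation under which 15 peaks are listed over distances of 577648 to 4289638 bp. Of these, 12 lie at the promoter of another gene and are no members. The 3 deep ones had folds of 15.28, 3.89 and 3.29, and the last lies 625 bp downstream of Rpl13. Apart from this model the farthest peak was in Cntnap2, at 2131220 bp with a fold of 5.4, followed by Lrp1b at 1791765 bp (3.33) and Fhit at 1542296 bp (4.11). In all, 167 deep peaks (11.5%) are also named for another gene that the authors mark as closer. They lay upstream of that gene in 59 cases (median fold 3.97) and downstream in 108 (median 3.74), and the 1279 peaks named for the host alone had a median of 3.81. The highest of these folds after Aars were 11.82 in Spnb4, 5337 bp upstream of Shkbp1, 9.76 in Zcchc24, 9.65 in Fntb, 14526 bp upstream of Rab15, and 9.13 in Tmprss6. The table gives 1 TSS distance per gene. Several starts are listed for 30.5% of the 849 host genes in the RefSeq promoter table, against 15.4% of all its genes. Whether a deep peak sits at another start of its gene, or in an exon or intron, was not tested. That table is of another build than the peaks, and the distances between the starts of a gene were not compared with those of its deep peaks.

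The promoters of most host genes, like those of most protein-coding genes, carried no listed peak. Of the 1078 host genes, 175 (16.2%, exact binomial 95% interval 14.1% to 18.6%) also had a peak in the authors' promoter class, against 13.2% of all protein-coding genes. By the rule all hosts are longer than 20 kb, while the 13.2% covers genes of any length, so these shares are not like for like. In the 175 genes with both, the promoter peak had the higher fold in 145 and the lower in 30. Over the whole list, peaks of the promoter class also had the higher median fold, 6.49 against 3.81 in deep peaks. The median promoter fold was 6.19 in the 175 genes and 6.65 in genes with a promoter peak and no deep peak. Deep peaks had a median fold of 3.75 in the genes with a promoter peak (231 peaks) and 3.83 in those without (1215 peaks). The next 4 genes were chosen after their values were seen. At Top2a, the topoisomerase gene of replication and mitosis, the promoter fold was 34.97 and the deep fold 4.37 at 21005 bp. Ltn1, a ubiquitin ligase of ribosome quality control, had 33.54 and 3.19, and Tubgcp3, of the gamma-tubulin ring complex, 20.11 and 4.09. Larp4b, an RNA-binding protein gene, had 5.45 at the promoter and 4.88 and 3.47 in its deep peaks. The reverse order held at Dock9, with 3.60 at the promoter and 20.60 inside, at Aars with 5.14 and 20.05, at Acsl1 with 4.25 and 11.55, at the ubiquitin ligase gene Nedd4l with 3.88 and 10.98, and at Fam120b with 3.77 and 9.39.

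**Figure D4:**
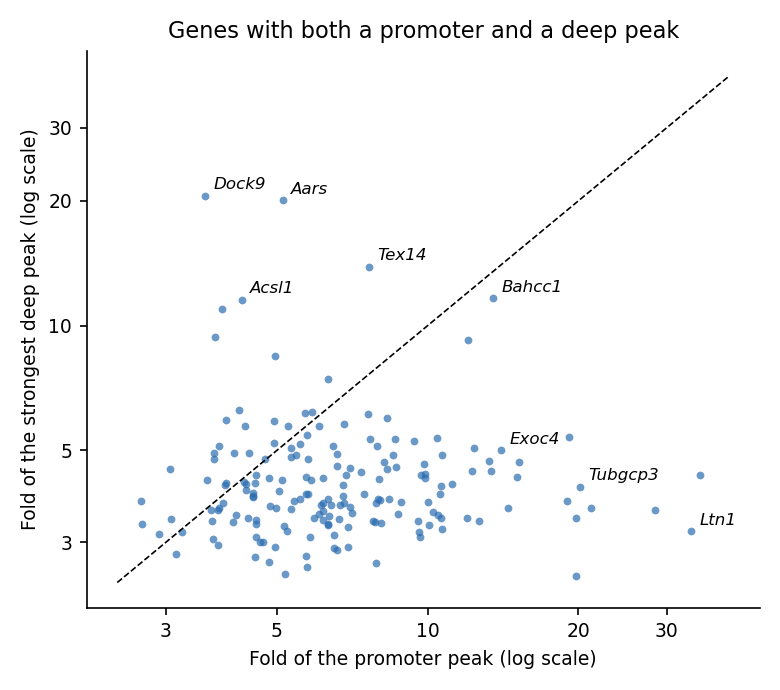
Fold of the strongest deep peak (vertical axis, log scale) against the fold of the strongest promoter peak (horizontal axis, log scale) in the 175 genes that have both, with a dashed line at equal values. In 145 genes the promoter peak is the stronger, with Ltn1 and Tubgcp3 far to the right, and Dock9, Aars, Tex14 and Acsl1 are among the 30 above the line.

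Deep peaks were also counted in gene lists. Many of their members were picked as long genes, and short genes of the background cannot hold a deep peak, so the shares are descriptions and no list was tested. Common fragile site genes, which span regions prone to breakage under replication stress, had a deep peak in 22 of 30 cases (73.3%), against 4.89% of all protein-coding genes. All 22 of these genes with any listed peak had a deep one, where 19.8% of all protein-coding genes with any listed peak did. The 54 peaks had a median fold of 3.99. Dmd, the dystrophin gene, had the highest with 8.01 and 50 tags at 918549 bp, and Macrod2 had 6.36 with 43 tags at 1540393 bp. Wwox had 4.58 with 32 tags and Fhit, at another classical fragile site, had 4.11 and 3.60. In the list of nerve and muscle genes, 13 of 35 had a deep peak, with folds of 2.64 to 5.07. The lists overlap, and Ptprg, Sdk1, Ctnna3 and Rad51l1 each stand in more than one.

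Cell adhesion and junction genes had deep peaks in 16 of 40 cases, against 4.89% of all protein-coding genes. The tight junction scaffold gene Tjp1 held 3 peaks with a maximum of 4.55, E-cadherin, Cdh1, had 4.87 at 29673 bp, and the collagen gene Col4a1 had the highest fold, 6.67. The median over the list, 3.74, was near that of all deep peaks.

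**Figure D5:**
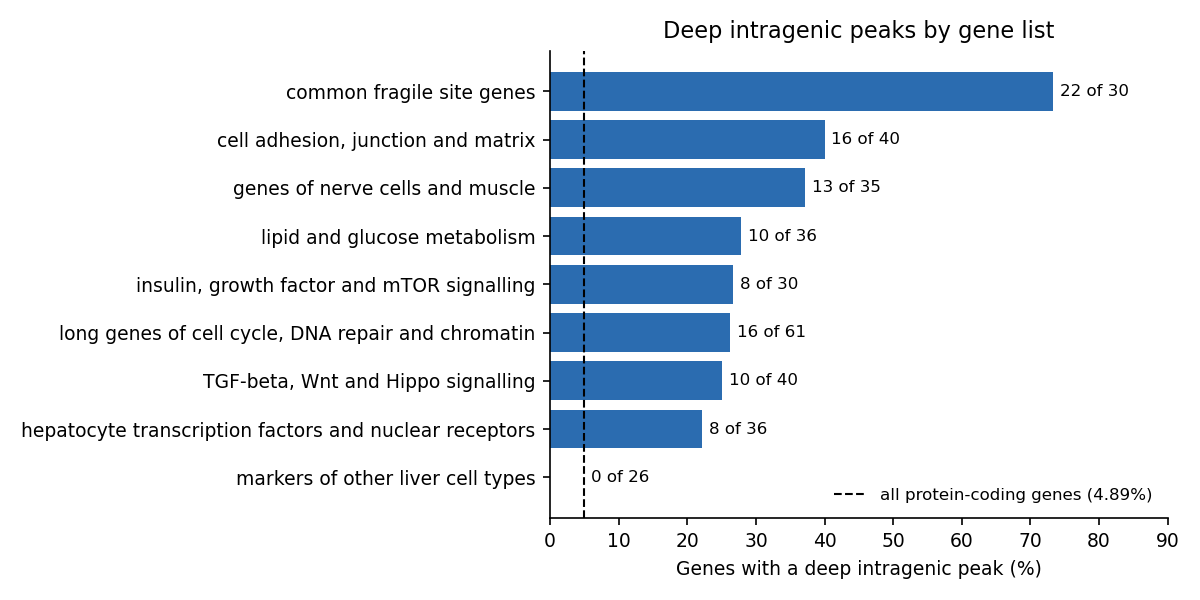
Share of each gene list described here with at least 1 deep intragenic peak (bars, %), with the count beside each bar and the share of all protein-coding genes as a dashed line at 4.89%. The common fragile site genes have the longest bar with 22 of 30, and markers of other liver cell types have 0 of 26.

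For lipid and glucose metabolism the count was 10 of 36, against 4.89% of all protein-coding genes, with 1 peak in each of the 10. After Acsl1 came the fatty acid elongase Elovl6 (5.82 with 284 tags at 38568 bp), the phosphatidate phosphatase Lpin1 (5.45) and the oxysterol-binding protein Osbpl3 (5.10). Abca1, which exports cholesterol, had 4.33, Srebf2, the regulator of cholesterol synthesis, 4.10, and Foxo1, a target of insulin signalling, 3.36. Among hepatocyte transcription factors and nuclear receptors the count was 8 of 36. Hnf4a held 3 deep peaks, of which the strongest had a fold of 10.08. The retinoid X receptor gene Rxra had 7.81 with 82 tags at 69547 bp, Esr1 4.96, Nfia 4.51 and 3.40, and Prox1 4.16.

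Insulin and growth factor genes had deep peaks in 8 of 30 cases, against 4.89% of all protein-coding genes. They were led by Sos2, with 5 peaks in Erbb4, 3 in the epidermal growth factor receptor gene Egfr (3.21, 3.21 and 3.59) and 2 in the growth hormone receptor gene Ghr (3.74 and 3.36). In TGF-beta, Wnt and Hippo signalling it was 10 of 40, where Vgll4, a cofactor of TEAD factors, had 8.86 with 287 tags and Tead1 itself 4.33. Smad3 had 4.32 and Smad4 3.93. In the list of 61 long genes of cell cycle, DNA repair and chromatin, 16 had one, against the same 4.89%. After Fancc the highest were the DNA methyltransferase Dnmt3a (8.38 at 84564 bp) and the cohesin subunit Stag1 (5.86 and 2.92). Atr, the replication checkpoint kinase, had 3.60 and Cdk6 2.81.

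Markers of other liver cell types, a list of 26 genes of endothelial, Kupffer, stellate and bile duct cells, had 0 deep peaks. A limit of 3 counts of the 26 allows a share of up to 11.5%. That range includes the 4.89% of all protein-coding genes, so the 0 does not set this list apart. None of the 26 had any listed peak, where 24.7% of all protein-coding genes did.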

How the data were processed

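Chromatin of the E2F1 ChIP and of the input was sequenced, and the authors deposited 1 peak list. Reads were aligned with Bowtie2 2.1.0 to mm9 (NCBIM37), per the submitters' processing notes. MACS is the peak caller named by the file headers. Which version and settings it ran with, whether replicates were pooled and how the listed peaks were selected is not stated in the labels or the file. Per the file headers, the deposited values are counts of tags in the called region, the pileup height (a signal), the fold enrichment (a ratio), a score (10 times the negative log10 of the p-value), and the false discovery rate in percent. A further deposited column without explanation was not used. The depth of the libraries is unknown.

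The table has 6887 rows, 1 for each peak and gene, for 5667 peaks and 5594 genes. The lowest score is 50 and the highest false discovery rate 8.57%. The serial numbers in the peak names run up to 18908, so the table holds only part of the numbered peaks, and the rule that selected them is not stated. Shares of the list are shares of this selection. Rows were grouped by peak, and coordinates are 1-based windows of 301 bp around the summit. The authors give the gene, the location and the TSS distance. Of the 5594 genes, 5500 (98.3%) matched the RefSeq table (GRCm38.p6), which was used for names and promoter sequences only. Medians have binomial order-statistic intervals and shares above 0 have exact Clopper-Pearson intervals, both at 95%, and a share of 0 has the limit set by 3 counts (Python 3.11.15, numpy 2.4.6, pandas 2.3.3, scipy 1.17.1, matplotlib 3.10.9), and the scripts were tested on simulated data. No statistical test was run, since there is 1 list and no replicate.

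The peaks described, the gene lists and the thresholds on fold were chosen with earlier results of these data known. Peaks and genes were named by these rules: the 20 highest and 5 lowest folds, the 20 genes with the most deep peaks (ties by summed tags), the 5 largest distances, the 5 highest tag counts, the peaks nearest the threshold, the 5 strongest peaks named for another gene as well, the strongest deep peaks in genes with a promoter peak, and the leading members of each list. Further list members, genes with several well supported peaks and the genes whose promoters are printed were named after their values were seen. Alternatives were other distance thresholds, stricter limits on the false discovery rate and the score, other ways to count peaks per gene, and leaving out 1 gene. Of the gene lists, 1 is not reported here, nor are a few genes.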

Additional observations from a re-analysis of the deposited data

How the results depend on the processing

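For 9 results and 10 other settings, 28 of 90 values left the range used (counts within 1.5 times, other values inside their intervals). The remaining 62 say little about stability, since 28 of them were equal to the reported value, many by construction. Taking the largest in place of the smallest distance returned all 9 values, because each peak lies inside at most 1 gene, and the distance threshold for deep peaks does not touch the nearer classes. With a distance threshold of 50000 bp there were 931 deep peaks with a median of 125 tags. With a false discovery rate of at most 5%, at most 1%, or a score of at least 100, the number of deep peaks was 825, 197 and 300, their median fold 4.10, 5.31 and 4.76, and their median tags 144, 202 and 174. Under the same 3 settings the median fold was 4.39, 7.42 and 5.51 at 5 to 20 kb and 5.55, 7.5 and 6.69 within 5 kb. Genes with at least 2 deep peaks numbered 94, 7 and 14, and those with at least 3 numbered 24, 1 and 3. Folds of at least 10 made up 3.52%, 14.2% and 9.67%. The share of host genes with a promoter peak was 10.2% at a false discovery rate of at most 1% and 10.0% at a score of at least 100. The promoter peaks were held to the same limits. The share of all protein-coding genes under them was not computed, so these values cannot be set against the 13.2% of the full list. These settings keep fewer and stronger peaks by construction. Without the peaks of AC114005.5 or of Tex14, settings chosen after seeing the data, folds of at least 10 made up 1.94% and 1.67%. No paired analysis was possible because the list has no replicate values. The depth of the libraries is unknown, and the table holds only part of the numbered peaks, so a gene without a listed peak may still be bound.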

Other observations

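The share of listed peaks that were deep intragenic differed between chromosomes. It was lowest on chromosome X, with 15 of 126 peaks (11.9%, exact binomial 95% interval 6.82% to 18.9%), and on chromosomes 7 (12.8%, 9.64% to 16.4%), 11 (14.9%, 11.6% to 18.7%) and 17 (16.2%, 12.2% to 21.0%). It was highest on chromosomes 18 (38.1%, 30.9% to 45.7%) and 1 (34.3%, 29.3% to 39.6%), leaving aside chromosome Y with 4 listed peaks. The intervals cover counting over peaks only, and the lengths and numbers of genes on each chromosome were not brought into the comparison.

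On chromosome X the deep peaks also had other values than on the autosomes. Their medians were a fold of 5.34, 61 tags and a called region of 1048 bp. The medians of the 19 autosomes ran over folds of 3.60 to 4.04, 104 to 156 tags and 1663 to 2373 bp. The 1 deep peak of chromosome Y had a fold of 5.18, 54 tags and 899 bp, near the values of chromosome X. All listed peaks of chromosome X showed the same direction, with a median fold of 6.82 and 102.5 tags. The highest fold of a deep peak there was 9.07. The sex of the mice was not used here, and its part in these values was not tested.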
